A study of Mus musculus with 7 samples.

Results

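The MARCKS proteins and the spinophilin family are 2 pairs of actin-associated signalling proteins. Their 4 genes, Marcksl1, Marcks, Ppp1r9a and Ppp1r9b, were taken by gene name from the table of small intestinal read counts, which lists 38293 genes. All 4 were among the 14869 genes with enough counts to be tested. The pairs were selected on the CPM values of 2 of these genes in these same libraries, Marcksl1 being lower and Ppp1r9a higher on the low cystine diet, so the diet difference of these 2 genes is described here without a test. Marcks and Ppp1r9b were added as their paralogs, and their diet difference was tested.

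RNA came from scrapings of the ileum, holding the epithelium and the lamina propria without the muscle layer, of male C57BL/6NRJ mice that were 8 weeks old and housed individually. Each library came from 1 mouse. All mice ate a purified high fat, low calcium AIN93G diet with normal cystine during 1 week of acclimatization and either stayed on it (normal cys, libraries X17SI4, X32SI4, SI9 and X1SI4) or changed for 2 weeks to the same diet with the added cystine replaced by an equimolar amount of alanine (low cys, libraries X23SI4, X26SI4 and X10SI4). The comparison asks whether dietary cystine restriction changes gene expression in the small intestine.

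MARCKS (Marcks) and MARCKS-like 1 (Marcksl1) are myristoylated proteins that lie on the inner face of the plasma membrane, where a short basic stretch, the effector domain, binds the lipid PIP2, calmodulin and actin filaments. Protein kinase C (PKC) phosphorylates this stretch, which releases the protein from the membrane. Neurabin (Ppp1r9a) and spinophilin (Ppp1r9b, also called neurabin 2) bind actin filaments and hold protein phosphatase 1 (PP1) at the cell cortex, and they are best known from the dendritic spines of neurons, with spinophilin expressed in most tissues. In the intestine, cortical actin forms the brush border of the enterocytes and the adhesion belts between epithelial cells.

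The coding sequences of the stretches by which the proteins act are shown because they are what the members of each pair share, and because they show how far the reads of one paralog can be told from those of the other. They were read from the GENCODE M21 transcripts (GRCm38), 5′ to 3′ on the coding strand, with capitals marking the bases at which the 2 paralogs differ. The effector domain is encoded in exon 2 of 2 in both MARCKS genes. The 45 bases shown are codons 92 to 106 of the 200 codons of Marcksl1 (chr4:129514903-129514947, plus strand) and codons 151 to 165 of the 309 codons of Marcks (chr10:37136543-37136587, minus strand).
Marcksl1: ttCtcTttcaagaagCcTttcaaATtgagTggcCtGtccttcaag
Marcks: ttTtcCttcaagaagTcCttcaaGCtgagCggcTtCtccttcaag
These stretches differed at 9 of 45 bases (80.0% identity), and 2 of the 15 codons encoded another amino acid. The stretch that docks onto PP1 is encoded by 72 bases that span an exon junction in both genes. It covers codons 447 to 470 of 817 in Ppp1r9b (exons 1 and 2 of 10, chr11:94992886-94996573 with the intron, plus strand) and codons 456 to 479 of 1095 in Ppp1r9a (exons 2 and 3 of 16, chr6:4906812-5045974 with the intron, plus strand).
Ppp1r9b: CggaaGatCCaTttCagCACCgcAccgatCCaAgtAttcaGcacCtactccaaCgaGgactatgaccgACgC
Ppp1r9a: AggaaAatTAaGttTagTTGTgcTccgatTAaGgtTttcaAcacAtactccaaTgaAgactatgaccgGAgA
Here 22 of 72 bases differed (69.4% identity), and 4 of the 24 codons encoded another amino acid.

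The libraries held between 14888760 and 22412703 counts. Levels are given in CPM, the read counts scaled to a TMM-normalised library size, and log2 fold changes are low cys minus normal cys from edgeR, with their standard error (SE). In edgeR's quasi-likelihood test, 0 of the 14869 genes tested had a Benjamini-Hochberg adjusted p-value under 0.05, while 817 genes (5.49%) had an unadjusted p-value under 0.05, and DESeq2 gave 16 genes (0.0728%) past the adjusted threshold. The normal cys library X17SI4 stood apart in the ratio of Marcksl1 to Marcks and in the summed levels of the T cell markers and of the PP1 catalytic subunits and core inhibitors, so values that rest on it are also given without it.

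Marcksl1 had a level of 0.503 times that of the normal cys libraries on the low cys diet, while for its paralog Marcks the diets overlapped. Marcksl1, on chromosome 4 from 129513581 to 129515985 (plus strand, GRCm38), had 56.7 CPM in X17SI4, 58.4 in X32SI4, 75.5 in SI9 and 61.8 in X1SI4 on the normal cys diet. On the low cys diet it had 32.8 CPM in X23SI4, 30.5 in X26SI4 and 31.97 in X10SI4. The lowest normal cys library therefore lay well above the highest low cys library, and SI9 was the highest of all. The means were 63.1 ± 8.56 CPM (SD, n = 4) and 31.8 ± 1.17 CPM (SD, n = 3), with a log2 fold change of -0.99 (SE 0.134). The low cys mice differed little among themselves, with a coefficient of variation of 3.69%, against 13.6% in the normal cys mice. These values rest on 488 to 1437 counts per library. Since they chose the gene, they are a description. Of all genes tested, 6.83% had diets that did not overlap, 3.51% with the low cys levels all on the lower side. In bulk tissue, fewer cells of a type that expresses a gene and less of its RNA per cell cannot be told apart.

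**Figure D1:**
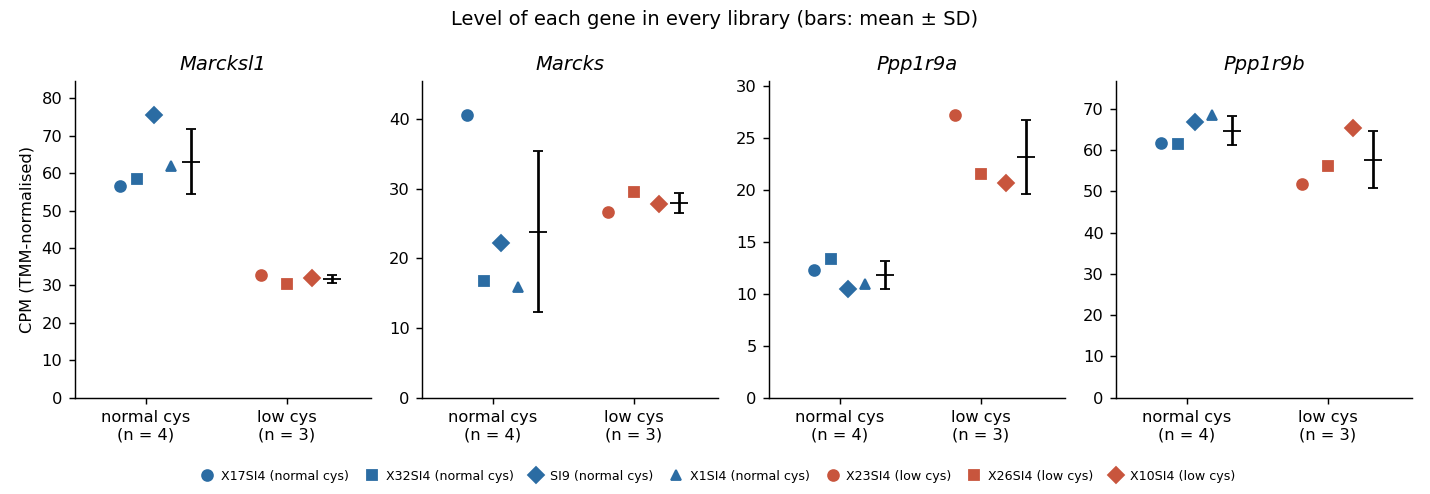
TMM-normalised CPM of the 4 genes in each library (vertical axes, linear and starting at 0, scaled separately), by diet, with the mean ± SD beside the points. The low cys libraries lie below all normal cys libraries for Marcksl1 and above them for Ppp1r9a, the diets overlap for Marcks and Ppp1r9b, and for Marcks the normal cys library X17SI4 (40.6 CPM) is the highest of all 7.

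Marcks, on chromosome 10 from 37133375 to 37138920 (minus strand), had 40.6 CPM in X17SI4, 16.8 in X32SI4, 22.2 in SI9 and 15.9 in X1SI4 on the normal cys diet. The low cys libraries had 26.7 CPM in X23SI4, 29.6 in X26SI4 and 27.8 in X10SI4, within the range of the normal cys libraries. The normal cys mice thus spread widely, with a coefficient of variation of 48.2% that came mostly from X17SI4, while the low cys mice lay close together, with 5.24%. The means were 23.9 ± 11.5 CPM (SD, n = 4) and 28.0 ± 1.47 CPM (SD, n = 3). The log2 fold change was 0.23 (SE 0.306, 95% interval -0.46 to 0.92), which did not pass the test (adjusted p = 0.854 in edgeR, adjusted p = 0.992 in DESeq2). The interval leaves room for a lower level as well as for a higher one, so a change was not detectable at this sample size, and absence of a change was not shown.

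Without X17SI4 the picture for Marcks was a different one. The 3 remaining normal cys libraries had 18.3 ± 3.41 CPM (SD, n = 3) and all lay below the low cys libraries. The log2 fold change was then 0.62 (SE 0.162), with an unadjusted p of 0.00482 and an adjusted p of 0.373 in edgeR, which is still not past the threshold. In that set of 6 libraries, 8.59% of all genes tested had normal cys levels that were all below the low cys levels, a share counted after the data had been seen. Marcksl1 (log2 fold change -1.04) and Ppp1r9a (1.00) stayed near their values over 7 libraries without X17SI4.

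The summed level of both MARCKS genes was 97.3 CPM in X17SI4, 75.2 in X32SI4, 97.7 in SI9 and 77.7 in X1SI4, against 59.5 in X23SI4, 60.1 in X26SI4 and 59.7 in X10SI4. The low cys libraries were thus nearly equal and all lower. In counts per kilobase of exon, the log2 ratio of Marcksl1 over Marcks was 3.13 in X32SI4, 3.10 in SI9 and 3.30 in X1SI4 but 1.82 in X17SI4. It was 1.63 in X23SI4, 1.38 in X26SI4 and 1.54 in X10SI4. Marcksl1 prevailed in all 7 libraries, and by less in the low cys libraries than in any normal cys library, although X17SI4 came close to them. The diet differences in the sum and in the ratio contain the Marcksl1 values that chose the gene and were not tested.

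**Figure D2:**
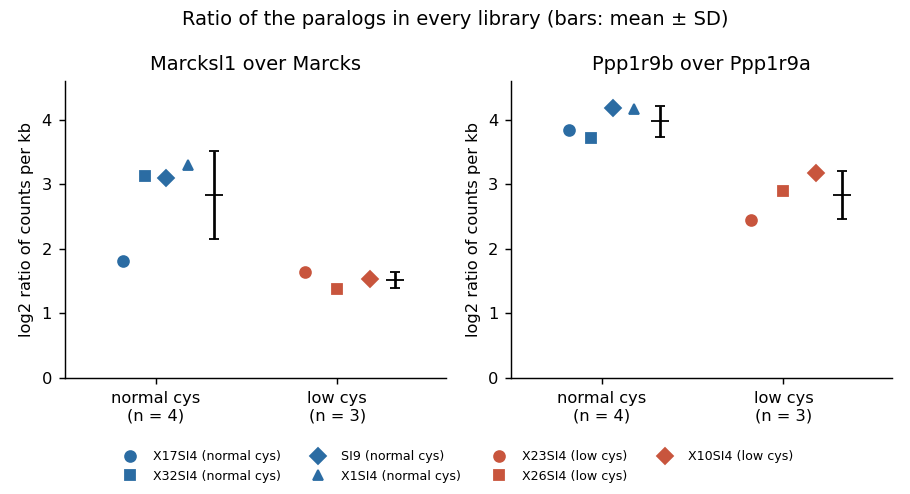
Log2 ratio of the paralogs' counts per kilobase of exon in every library (vertical axes, starting at 0), by diet, with the mean ± SD. Every ratio is above 0, and in both pairs the low cys libraries (1.38 to 1.63 for Marcksl1 over Marcks, 2.44 to 3.17 for Ppp1r9b over Ppp1r9a) lie below the normal cys libraries.

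Ppp1r9a had a level of 1.97 times that of the normal cys libraries on the low cys diet. This gene, which encodes neurabin, lies on chromosome 6 from 4902917 to 5165661 (plus strand). It had 12.3 CPM in X17SI4, 13.4 in X32SI4, 10.5 in SI9 and 10.9 in X1SI4, against 27.2 in X23SI4, 21.6 in X26SI4 and 20.7 in X10SI4. The diets did not overlap, and X23SI4 was the highest library. The means were 11.8 ± 1.34 CPM (SD, n = 4) and 23.2 ± 3.55 CPM (SD, n = 3), with a log2 fold change of 0.98 (SE 0.158). The variation between mice was similar on both diets, with coefficients of variation of 11.4% and 15.3%. The values rest on 199 to 667 counts per library and are a description, since they chose the gene. Of all genes tested, 3.32% likewise had normal cys levels that were all below the low cys levels.

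Ppp1r9b, which encodes spinophilin, lies on chromosome 11 from 94991035 to 95006899 (plus strand). It had 61.8 CPM in X17SI4, 61.5 in X32SI4, 66.7 in SI9 and 68.5 in X1SI4 on the normal cys diet. On the low cys diet it had 51.7 CPM in X23SI4, 56.0 in X26SI4 and 65.2 in X10SI4. X23SI4 and X26SI4 were the lowest libraries, and X10SI4 lay within the normal cys range. The means were 64.6 ± 3.53 CPM (SD, n = 4) and 57.7 ± 6.89 CPM (SD, n = 3), with a log2 fold change of -0.16 (SE 0.122, 95% interval -0.44 to 0.11), which did not pass the test (adjusted p = 0.798 in edgeR, adjusted p = 0.992 in DESeq2). The interval is narrower than that of Marcks and excludes a change of the size of that of Ppp1r9a in either direction.

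Within the neurabin pair the low cys libraries stood in opposite order, with X23SI4 the highest for Ppp1r9a and the lowest for Ppp1r9b, and X10SI4 the reverse. The summed level of both genes was 74.1 to 79.4 CPM in the normal cys libraries and 77.6 to 85.9 CPM in the low cys libraries. The ranges of the diets overlapped. The log2 ratio of Ppp1r9b over Ppp1r9a in counts per kilobase was 3.84 in X17SI4, 3.71 in X32SI4, 4.19 in SI9 and 4.16 in X1SI4. It was 2.44 in X23SI4, 2.89 in X26SI4 and 3.17 in X10SI4, all below the normal cys libraries. This difference again contains the values that chose Ppp1r9a.

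Per kilobase of exon the 4 genes kept one order on both diets. On the normal cys diet Marcksl1 was the most abundant with 39.3 ± 5.34 CPM per kilobase (SD, n = 4), followed by Ppp1r9b with 12.7 ± 0.694, Marcks with 5.89 ± 2.84 and Ppp1r9a with 0.811 ± 0.0921. On the low cys diet the levels were 19.8 ± 0.730, 11.3 ± 1.35, 6.92 ± 0.363 and 1.59 ± 0.244 CPM per kilobase (SD, n = 3). No neighbours in this order overlapped within a diet. The closest were Ppp1r9b (lowest 12.1) and Marcks (highest 10.03) on the normal cys diet. The order within each pair was not used to choose the genes. Marcksl1 exceeded Marcks in 7 of 7 libraries, by a mean log2 ratio of 2.27 ± 0.86 (SD, n = 7) or 4.83-fold (two-sided exact sign-flip permutation test, p = 0.0156, adjusted p = 0.0156 over 2 pairs). Ppp1r9b exceeded Ppp1r9a in 7 of 7 libraries, by a mean log2 ratio of 3.49 ± 0.67 (SD, n = 7) or 11.2-fold (exact permutation p = 0.0156, adjusted p = 0.0156). This is the smallest p-value that 7 libraries allow. For Ppp1r9a, the exons sum to 14531 bases and the longest transcript to 9547, and with the longest transcripts the ratio was 3.05.

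Little of the sequence of the 4 genes occurs in other genes. Of the 50-base stretches of its transcripts, Marcksl1 shared 25 of 1556 (1.61%) with transcripts of other genes, Marcks 3 of 3999 (0.0750%), Ppp1r9a 20 of 14847 (0.135%) and Ppp1r9b 0 of 5079, and none was shared within a pair. A processed pseudogene, Marcksl1-ps4, held 7 to 68 counts per library, which was 0.645% to 5.29% of the Marcksl1 counts. All of its 242 stretches lie in Akr1c19 transcripts, and its log2 fold change was -0.67 (adjusted p = 0.814 in edgeR). The neighbour Hdac1, a histone deacetylase gene that ends 118 bases from Marcksl1 on the other strand, had 72.7 ± 8.52 CPM (SD, n = 4) with normal cys and 68.5 ± 0.224 CPM (SD, n = 3) with low cys, a log2 fold change of -0.09 (SE 0.125, adjusted p = 0.862). Pon1, the neighbouring gene to the right of Ppp1r9a, held 0 to 1 counts per library. On the strand of Ppp1r9a, 3 unclassified transcripts that overlap the Ppp1r9a locus held between 0 and 27 counts.

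**Figure D3:**
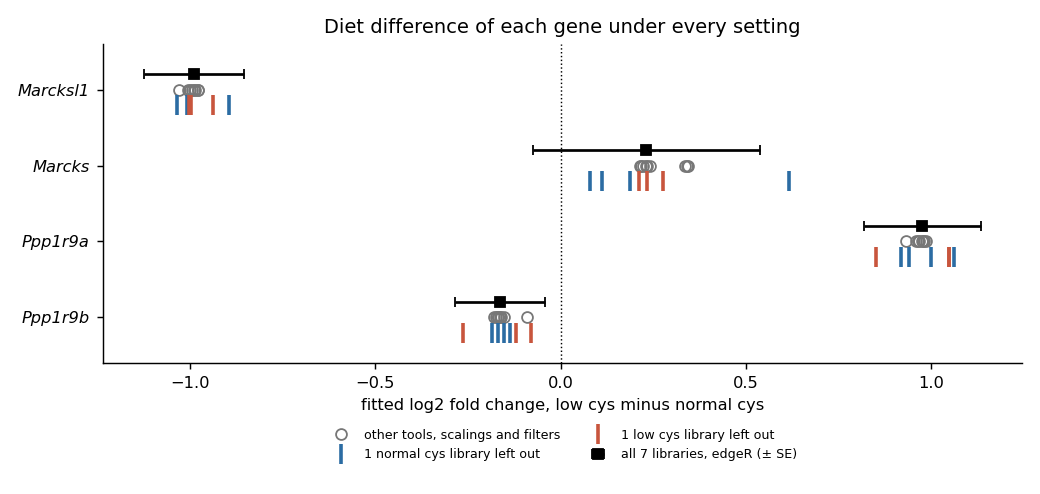
Fitted log2 fold change, low cys minus normal cys (horizontal axis), of the 4 genes with all 7 libraries (squares, ± SE), with other tools, scalings and filters (circles), and with 1 library left out (blue ticks for normal cys, red ticks for low cys). The estimates keep their sign in every setting, and the blue tick of Marcks at 0.62 is the fit without X17SI4.

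The direction of the estimates did not depend on the method. The log2 fold change of Marcksl1 was between -1.03 and -0.98 with 8 other tools, scalings and filters, and between -1.04 and -0.90 when each library was left out in turn. For Ppp1r9a the ranges were 0.93 to 0.99 and 0.85 to 1.06. Marcks ranged from 0.21 to 0.34 and from 0.08 to 0.62, and Ppp1r9b from -0.18 to -0.09 and from -0.26 to -0.08, with no adjusted p under 0.373 for Marcks or 0.587 for Ppp1r9b. The plot of estimates by setting shows Marcks as the gene that moved most when a library was left out.

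The genes around the 4 members were examined in 6 lists with 109 genes, of which 99 were tested. None passed the adjusted threshold in edgeR (smallest adjusted p = 0.794) or in DESeq2. At an unadjusted p under 0.05 in edgeR, 3 were higher and 5 lower on the low cys diet, together 8.08% against 5.49% of all genes tested (2.66% higher and 2.83% lower). In DESeq2, with 107 list genes tested, the counts were 3 higher and 10 lower, where 4.50% of all 22778 genes tested had an unadjusted p under 0.05. The diets did not overlap for 2 genes with higher and 7 genes with lower low cys levels, together 9.09% against 6.83% of all genes. The median log2 fold change of the 99 genes was -0.09, and that of all genes tested was 0.0072.

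Upstream of the MARCKS proteins, none of the 11 tested of 12 kinase genes (the PKC isoforms and the related protein kinase D genes Prkd1, Prkd2 and Prkd3) had diets that did not overlap, and their median log2 fold change was -0.03. The most abundant was Prkcd, PKC delta, with 348 ± 58.4 CPM (SD, n = 4) with normal cys and 291 ± 20.4 CPM (SD, n = 3) with low cys, a log2 fold change of -0.26 (SE 0.161). Among the GAP43-like proteins, calmodulins and MARCKS partners, of which 14 of 15 were tested, the median was -0.06. Gap43, a neuronal PKC substrate that like MARCKS binds calmodulin, held 0 to 2 counts per library and was not tested. Basp1, its relative, was low with 2.42 ± 1.06 CPM (SD, n = 4) and 1.62 ± 0.440 CPM (SD, n = 3), a log2 fold change of -0.57 (SE 0.406) with overlapping diets.

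Plcd3, a phospholipase C that cleaves PIP2, had higher levels in every low cys library than in any normal cys library, with 0.953 ± 0.204 CPM (SD, n = 4) and 1.71 ± 0.432 CPM (SD, n = 3). Its log2 fold change was 0.85 (SE 0.335, adjusted p = 0.794), resting on 16 to 54 counts per library.

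On the PP1 side, the catalytic subunits and core inhibitors (12 of 13 tested) had a median log2 fold change of 0.03, and the other PP1 targeting subunits (20 of 23 tested) had one of -0.07. All genes of these 2 lists had overlapping diets. Ppp1r14d, an inhibitor of PP1 that PKC activates, was the most abundant of the first list, with 209 ± 30.2 CPM (SD, n = 4) and 181 ± 8.79 CPM (SD, n = 3). Ppp1r15b, which directs PP1 to the translation factor eIF2α, was the most abundant of the second, with 274 ± 38.3 CPM (SD, n = 4) and 251 ± 29.6 CPM (SD, n = 3). The summed level of the first list overlapped between the diets through X17SI4 alone (1210 CPM). The other normal cys libraries had 1006 to 1032 CPM and the low cys libraries 1107 to 1137 CPM. Of all single genes tested, 8.59% had low cys levels that were all higher without X17SI4, against 3.32% with it. This library was set aside after the data had been seen.

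The neurabin and spinophilin partners (11 of 15 tested) had a median log2 fold change of -0.17. Camk2a, a subunit of the calcium/calmodulin-dependent kinase II that spinophilin and neurabin bind in neurons, had 0.991 ± 0.301 CPM (SD, n = 4) and 1.95 ± 0.590 CPM (SD, n = 3), higher in every low cys library, with a log2 fold change of 0.98 (SE 0.371, adjusted p = 0.794 in edgeR). Adra2a, the alpha 2A adrenergic receptor, had 1.66 ± 0.748 CPM (SD, n = 4) and 3.75 ± 2.14 CPM (SD, n = 3) with overlapping diets and a log2 fold change of 1.18 (SE 0.463, adjusted p = 0.794). These were scarce transcripts, as were those of the neuronal partners Dcx and Drd2, which had 0 counts in all 7 libraries. Cdk5, a kinase that phosphorylates spinophilin, had 27.9 ± 4.88 CPM (SD, n = 4) and 21.7 ± 0.784 CPM (SD, n = 3), a log2 fold change of -0.36 (SE 0.156, adjusted p = 0.794). Tgoln1, a trans-Golgi protein, was the most abundant partner and had overlapping diets with 307 ± 125.9 CPM (SD, n = 4) and 273 ± 28.5 CPM (SD, n = 3).

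The genes of the brush border and cortical actin, among which both protein families act, were the list with most estimates on one side among the 6 lists. All 31 were tested, 26 had a negative and 5 a positive log2 fold change, and the median was -0.20. Of all genes tested, 51.2% had a log2 fold change above 0. The ileal enterocyte markers leaned the same way, with 1 of 10 positive. Of the 31 brush border and cortical actin genes, 6 had diets that did not overlap, all lower on the low cys diet. Such levels were found in 3.51% of all genes tested. At an unadjusted p under 0.05 in edgeR, 4 of the 31 genes were lower, against 2.83% of all genes. None of the 31 passed the adjusted threshold. Vil1 (villin), among the 6, also counts among the enterocyte markers. Eps8l3, an actin regulator of the Eps8 family, had 577 ± 93.7 CPM (SD, n = 4) and 409 ± 31.4 CPM (SD, n = 3), a log2 fold change of -0.50 (SE 0.162, adjusted p = 0.794 in edgeR). Ezr, ezrin, which ties actin to the apical membrane, had 1802 ± 130.3 CPM (SD, n = 4) and 1364 ± 154 CPM (SD, n = 3), a log2 fold change of -0.40 (SE 0.155, adjusted p = 0.794). Cdhr2, a protocadherin that links microvillus tips, had 2192 ± 244 CPM (SD, n = 4) and 1632 ± 264 CPM (SD, n = 3), a log2 fold change of -0.43 (SE 0.177, adjusted p = 0.794). These 3 genes were lower in each low cys library than in any normal cys library. Espn, espin, an actin bundler, had 318 ± 30.0 CPM (SD, n = 4) and 247 ± 45.2 CPM (SD, n = 3) with overlapping diets. Actb, beta actin, was the most abundant with 5018 ± 1209 CPM (SD, n = 4) and 3951 ± 484 CPM (SD, n = 3), and shared 9.12% of its 50-base stretches with other genes.

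**Figure D4:**
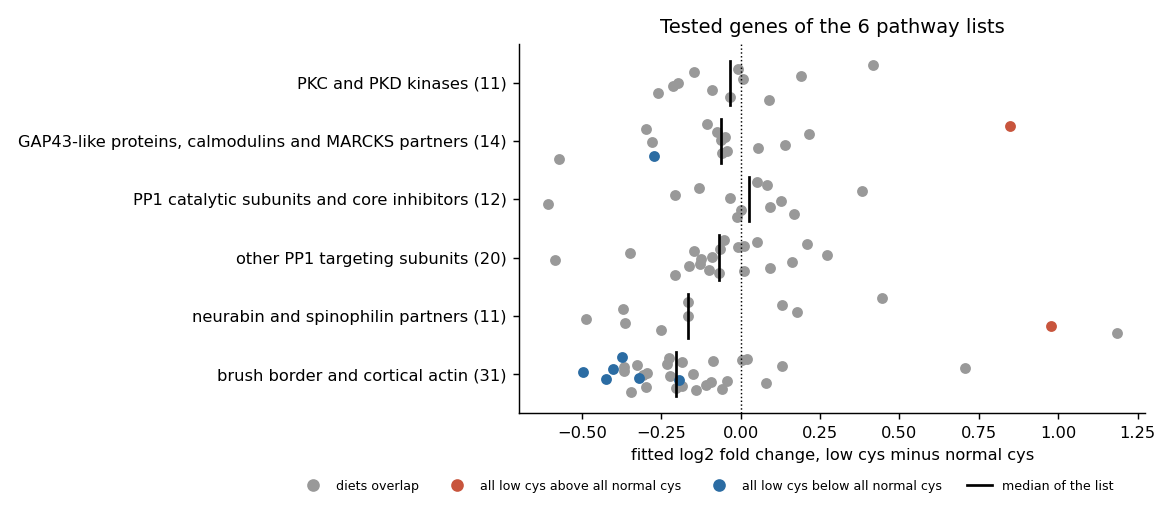
Fitted log2 fold change, low cys minus normal cys (horizontal axis), of the 99 tested genes of the 6 lists (rows, number tested in brackets), with black lines at the list medians. Red marks genes whose low cys values are all higher, and blue those whose low cys values are all lower, and the 6 blue points of the brush border list are the largest such group.

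Markers of the cell types in the scrapings also differed between the libraries. The summed level of 10 ileal enterocyte markers was 25567 to 34718 CPM on the normal and 17646 to 24538 CPM on the low cys diet, with no overlap, and Vil1 (villin) and Krt20 were lower in each low cys library. The 7 B and plasma cell markers summed to 39.6 to 138.9 CPM and 164 to 236 CPM, again with no overlap, and Jchain was the marker with higher levels in every low cys library. The 10 crypt stem and proliferating cell markers overlapped, with 157 to 372 CPM and 250 to 457 CPM, all 10 estimates were positive, and Slc12a2 was higher in every low cys library. Of the 8 tested stromal markers, 7 had a positive log2 fold change, and Dcn, Col3a1 and Col6a1 were higher in every low cys library. Dcn, on 26 to 110 counts per library, passed the adjusted threshold in DESeq2 (log2 fold change 1.55, adjusted p = 0.0438) and not in edgeR (adjusted p = 0.794). Fbln1, the most abundant stromal marker, went the other way, with overlapping diets and a log2 fold change of -0.75 (SE 0.423). It had 108 ± 47.5 CPM (SD, n = 4) with normal cys and 64.4 ± 33.1 CPM (SD, n = 3) with low cys. X17SI4, at the top of the normal cys range for the crypt markers, was also the library with the highest Marcks level. The summed enterocyte markers and the summed B and plasma cell markers separated the diets, as did Marcksl1 and Ppp1r9a. The summed crypt markers did not. The part of the cell types in the differences of Marcksl1 and Ppp1r9a was not tested.

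For the cells in which neurabin and spinophilin are best known, the markers were nearly absent. Of 10 enteric neuron markers 2 were tested, and their sum of 6.99 to 13.0 CPM on the normal and 7.19 to 12.8 CPM on the low cys diet came mostly from Ret. Stmn2, another neuronal marker, had 0.0454 to 0.105 CPM with normal cys and 0.129 to 0.187 CPM with low cys, higher in every low cys library but on 1 to 4 counts per library, too few to be tested. The enteric glia marker Sox10 had 0 counts in all 7 libraries, and S100b and Gfap had 0 to 1 count per library, while Erbb3 gave most of the glial sum of 492 to 959 CPM and 577 to 664 CPM. The defining neuronal and glial markers were thus near 0 on both diets, whereas Ppp1r9a held at least 199 counts in every library.

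Among the other lists, the 9 fibroblast and stroma markers summed to 77.9 to 185.9 CPM and 71.9 to 134.4 CPM, mostly from Fbln1. The 7 endothelial markers (10.99 to 14.05 CPM and 14.06 to 16.4 CPM) did not overlap, by a small margin. The 8 smooth muscle markers (3.15 to 14.1 CPM and 6.65 to 47.2 CPM) were low, with X26SI4 the highest. Sums overlapped for the 5 Paneth cell markers (384 to 2575 CPM and 1632 to 2680 CPM), the 7 goblet cell markers (11842 to 22027 CPM and 11900 to 12847 CPM), the 8 enteroendocrine markers (204 to 365 CPM and 238 to 246 CPM) and the 6 tuft cell markers (36.2 to 84.1 CPM and 45.8 to 49.1 CPM). They also overlapped for the 8 macrophage and dendritic cell markers (14.8 to 41.7 CPM and 33.7 to 48.9 CPM) and the 8 T cell markers (127.9 to 243 CPM and 94.4 to 148 CPM). Without X17SI4 the diets no longer overlapped for the Paneth cell markers, with a normal cys maximum of 1292 CPM, or for the tuft cell markers, with 67.3 to 84.1 CPM on the normal cys diet. X17SI4 was set aside here after the data had been seen. The part of these lists in the values of the 4 genes was not tested. All 10 ileal enterocyte markers were detected and tested, the ileal bile acid genes Fabp6 and Slc10a2 included.

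**Figure D5:**
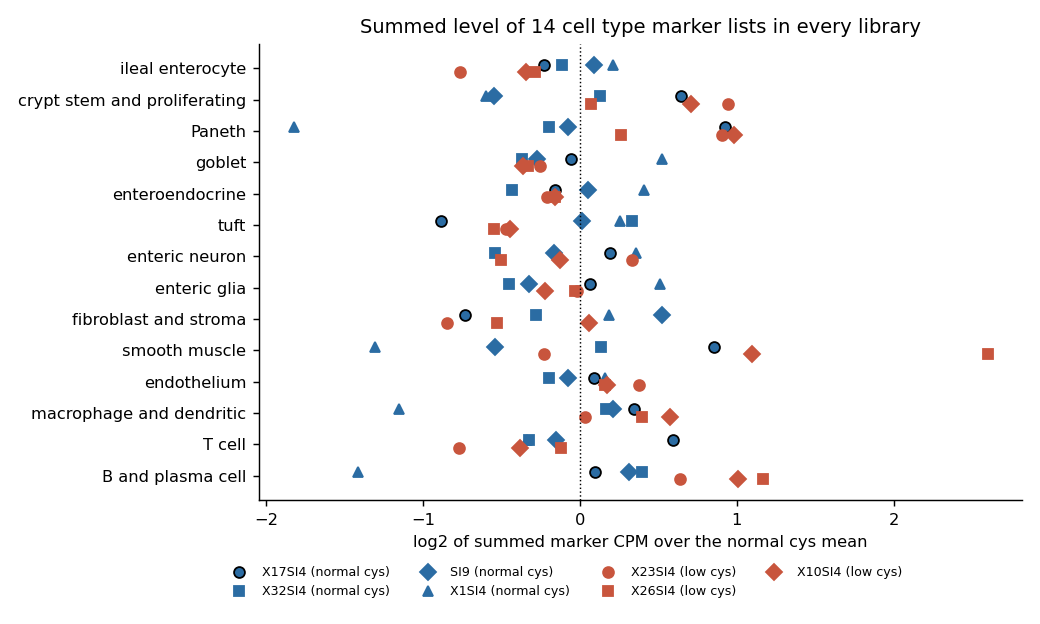
Summed CPM of 14 cell type marker lists in every library, as the log2 ratio to the normal cys mean (horizontal axis). The low cys libraries (red) lie below the normal cys libraries (blue) for ileal enterocytes and above them for B and plasma cells and, narrowly, for endothelium, and the normal cys library X17SI4 (black outline) is the highest for T cells.

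The genes whose levels ran most like those of the members were sought among 10315 genes with a mean of at least 5 CPM, by Pearson's r of log2 CPM over the 7 libraries. The libraries share the diet split, so r after centring within each diet is given beside it, and both are descriptions. For Marcksl1 these were Calml4, a calmodulin-like protein (r = 0.978, within diets 0.832), Crybg2 (0.973 and 0.574) and Dpf2, a chromatin remodelling subunit (0.971 and 0.660). Calml4 had 230 to 247 CPM in the normal cys libraries and 207 to 214 CPM in the low cys libraries, a far smaller difference than that of Marcksl1. For Ppp1r9a they were Gvin1 (0.973 and 0.732), Cep89, a centrosomal protein (0.972 and 0.914), and Gm4070 (0.971 and 0.705). Gvin1 and Gm4070 are near-identical copies of large interferon-inducible GTPase genes, so their separate counts are uncertain. For Marcks the closest were Tmed2, a vesicle transport protein (0.979 and 0.976), Rnf44 (0.971 and 0.968) and Bcl9, a Wnt coactivator (0.965 and 0.974). For Ppp1r9b they were Erich1 (0.981 and 0.984), Cyp3a11, a cytochrome P450 (0.977 and 0.963), and Aldh9a1 (0.962 and 0.942). For Marcks and Ppp1r9b the likeness was nearly as high within the diets as over all libraries, and for Marcksl1 and Ppp1r9a it was lower within the diets. For Marcks it went with X17SI4, in which Tmed2 had 286 CPM against 234 to 245 CPM in the other normal cys libraries.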

How the data were processed

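The authors deposited raw read counts per gene, without normalization, for 7 poly(A)-selected stranded libraries of ileal scrapings. Reads were trimmed with Trim Galore (0.6.5), freed of ribosomal reads, aligned to GRCm38 with STAR (2.73a in the submitters' processing notes) and counted on the exons of Ensembl release 70 with featureCounts. The strand setting and the treatment of multi-mapping reads were not given in the sources used here. No batch is given either, so none was examined.

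Diets were taken from the sample titles. Genes were filtered with filterByExpr (minimum count 10, minimum total count 15), TMM-normalised and compared in edgeR (4.0.16, R 4.3.3) by its quasi-likelihood test with robust dispersions and no covariates, with Benjamini-Hochberg adjustment over all 14869 genes tested. CPM values are counts relative to the effective library size, and log2 CPM used a prior count of 2. Paralog levels were compared by a two-sided exact sign-flip permutation test. DESeq2 (1.42.0), limma-voom (limma 3.58.1) with and without sample weights, other scalings and filters, and leaving out each library were the alternatives. The methods were tested on simulated data.

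Loci, longest transcript lengths and sequences came from GENCODE M21 (GRCm38), in which 36345 of 38293 gene identifiers were found. The summed exon lengths were those deposited with the counts. Genes were matched by identifier, and some list genes stood under older symbols in the table. The members and lists were chosen with earlier results of these data known. Beside the 4 members and Gap43 and Basp1, the rule for naming took the most abundant gene from each pathway list. It also took up to 4 with the smallest p among those with an unadjusted p under 0.05 or non-overlapping diets. From each marker list it took the most abundant gene and those at 0 counts, but many of the most abundant markers are not named in the text. Other markers are named after their values were seen. For likeness it took 3 genes per member. An item that the rule would name is not reported here. p-values measure the spread between mice, each with 1 library.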

Additional observations from a re-analysis of the deposited data

Results flagged for a closer look

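In 26 values (the 4 genes, 2 paralog ratios and 20 list sums), the normal cys libraries were examined for a library far from the other 3, by the gap to its nearest neighbour over the whole range (Dixon's criterion, above 0.829). Chance sets apart about 1 in 20 such groups. There were 3 values that passed, and all 3 were those of X17SI4. Its log2 ratio of Marcksl1 over Marcks was 1.82, where the others had 3.10 to 3.30 (gap over range 0.868). Its summed level of the PP1 catalytic subunits and core inhibitors was 1210 CPM, where the others had 1006 to 1032 CPM (0.872). Its summed T cell marker level was 243 CPM, where the others had 127.9 to 145 CPM (0.852). For the 4 genes alone the largest gaps were 0.728 of the range for Marcksl1 (SI9, high), 0.744 for Marcks (X17SI4, high), 0.364 for Ppp1r9a and 0.249 for Ppp1r9b, none past the criterion.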

How the results depend on the processing

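The log2 fold changes of the 4 genes and the paralog ratios kept their direction in every alternative, and Marcks and Ppp1r9b did not pass the adjusted threshold in any fit across genes. The two-sided exact permutation test over the 35 splits, which allows no adjustment over genes, gave p = 0.371 for Marcks and 0.114 for Ppp1r9b. The log2 fold changes with each library left out ranged from -1.04 to -0.90 (Marcksl1), 0.08 to 0.62 (Marcks), 0.85 to 1.06 (Ppp1r9a) and -0.26 to -0.08 (Ppp1r9b). The paralog ratios ranged from 2.10 to 2.42 and from 3.37 to 3.66 (exact permutation p = 0.0312, the smallest that 6 libraries allow). The count of all genes past the adjusted threshold, 0 in edgeR, was 16 with DESeq2 and 4 with weighted limma-voom, and 0 to 1 with a library left out, the 1 being Gm8979 without X32SI4. Of the list genes, the 5 that were lower at an unadjusted p under 0.05 became 10 with DESeq2 and 14 with weighted limma-voom. Leaving out libraries gave 0 to 10 lower ones (9 without X17SI4, 1 without SI9, 3 without X1SI4, 0 without X23SI4, 10 without X26SI4, 1 without X10SI4) and 0 to 3 higher ones (2 without X17SI4, X1SI4 or X10SI4, 1 without X32SI4 or SI9, 0 without X23SI4), so that the lower genes did not outnumber the higher ones without SI9, X23SI4 or X10SI4, and the cause was not tested. Over all genes, the 817 at an unadjusted p under 0.05 became 1850 with weighted limma-voom, 1763 without X17SI4, 403 without SI9, 258 without X23SI4 and 522 without X10SI4. No paired analysis was possible because the labels give the diets no shared replicate numbers. With 4 and 3 mice, modest differences of the paralogs could not be detected, and for Plcd3, Camk2a and Adra2a the few counts add counting error.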
